A study of Mus musculus with 2 samples.

Results

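The T-box transcription factors examined here were T (Brachyury), Tbx1, Tbx2, Tbx3, Tbx4, Tbx5, Tbx6, Tbx15, Tbx18 and Tbx20. They were chosen by gene symbol, and all 10 were found among the 32285 genes of the deposited tables. Transcripts were counted in single cells of whole E9.5 mouse embryos, in 1 wild-type library and 1 Usb1-null library. The knockout is a germline deletion of exons 1 and 2 of Usb1, which encodes a nuclease acting on the 3′ tail of U6 snRNA. The comparison asked where in the embryo each T-box gene was expressed and whether its level differed between the wild-type and the Usb1-null library.

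T-box proteins bind DNA through a shared domain, the T-box, and switch developmental genes on or off. Tbx5 acts mainly as an activator in the heart, where Tbx20 acts as well. Tbx2 and Tbx3 act there as repressors that keep the atrioventricular canal and the future conduction system from becoming working chamber muscle. T and Tbx6 are needed for mesoderm formation at the tail end of the embryo, Tbx1 patterns the pharyngeal arches and their arteries, and Tbx4 and Tbx5 mark the hindlimb and the forelimb.

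Tbx2 and Tbx4 are neighbours on chromosome 11, at chr11:85832551-85841948 and chr11:85886422-85916097 of GRCm38, with 44473 bases between them. Tbx3 (chr5:119670669-119684724) and Tbx5 (chr5:119832668-119885219) are the other close pair, with 147943 bases between them. T lies at chr17:8434423-8442496, Tbx1 at chr16:18580979-18590671 and Tbx6 at chr7:126781483-126785560. Tbx15 lies at chr3:99240381-99354259, Tbx18 at chr9:87702800-87731260 and Tbx20 at chr9:24718138-24774303. Tbx3, Tbx15 and Tbx18 each overlap 1 annotated gene on the opposite strand (Tbx3os1, Gm43120 and D030062O11Rik), and how the counting treated strand was not stated.

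The wild-type library held 15161 kept cells and 21732106 unique molecular identifiers (UMIs, 1 per captured transcript), and the Usb1-null library held 13018 cells and 33383886 UMIs. The median cell had 1243 UMIs in the wild-type and 2299.5 in the Usb1-null library, so levels are given as CPM, the UMI count of a gene scaled to the total UMIs of the same cells. Xist gave 53276 UMIs in the wild-type and 26 in the Usb1-null library, and Y-linked genes gave 14 and 23463, so sex and genotype cannot be told apart. The Usb1-null library also held 64 cells led by adult liver genes such as Alb and Cps1, and the wild-type library held 0. The libraries shared 61 cell barcodes. Usb1 itself gave 68 of the 21732106 wild-type UMIs and 47 of the 33383886 Usb1-null UMIs, a lower share in the Usb1-null library. Reads near the 3′ end of the transcript do not report on a deletion of exons 1 and 2. The labels name nuclear RNA while the protocol describes dissociated single cells, and neither source gives the number of embryos per library. With 1 library per genotype no test between genotypes was possible, and every interval below is a 95% interval that covers counting error only.

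The cells formed 27 clusters, made without any T-box gene, and 22 of these had 50 or more cells from both libraries. Clusters were called "-like" from marker genes, and those without a clear marker call are given by number and leading genes. Most of the T-box genes with enough counts were concentrated in few clusters. Among the 8 genes with at least 100 UMIs, 5 were at least 10-fold higher in their highest cluster than in the median cluster (5 CPM added), against 4.44% of all genes with at least 100 UMIs. These were Tbx20 (49.8-fold), Tbx1 (23.9-fold), Tbx2 (22.6-fold), Tbx5 (20.7-fold) and Tbx18 (19.2-fold). Tbx3 was broader, at 4.44-fold, with 119 CPM in its highest and 22.9 CPM in the median cluster. Tbx15 (3.03-fold, 18.3 and 2.68 CPM) and T (1.94-fold, 7.02 and 1.20 CPM) were scarce. The 5 CPM added lower the fold of such genes, so their breadth cannot be read from it. The comparison also leaves out the small cluster 25, which matters for T. The cluster with the highest level was the same in both libraries for 7 of the 8 genes that had one in each. These 8 are another set, which includes Tbx6, with 58 UMIs, and leaves out T. The share was 45% over all genes with at least 100 UMIs and such a cluster in each library, so the sets are not alike.

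**Figure D1:**
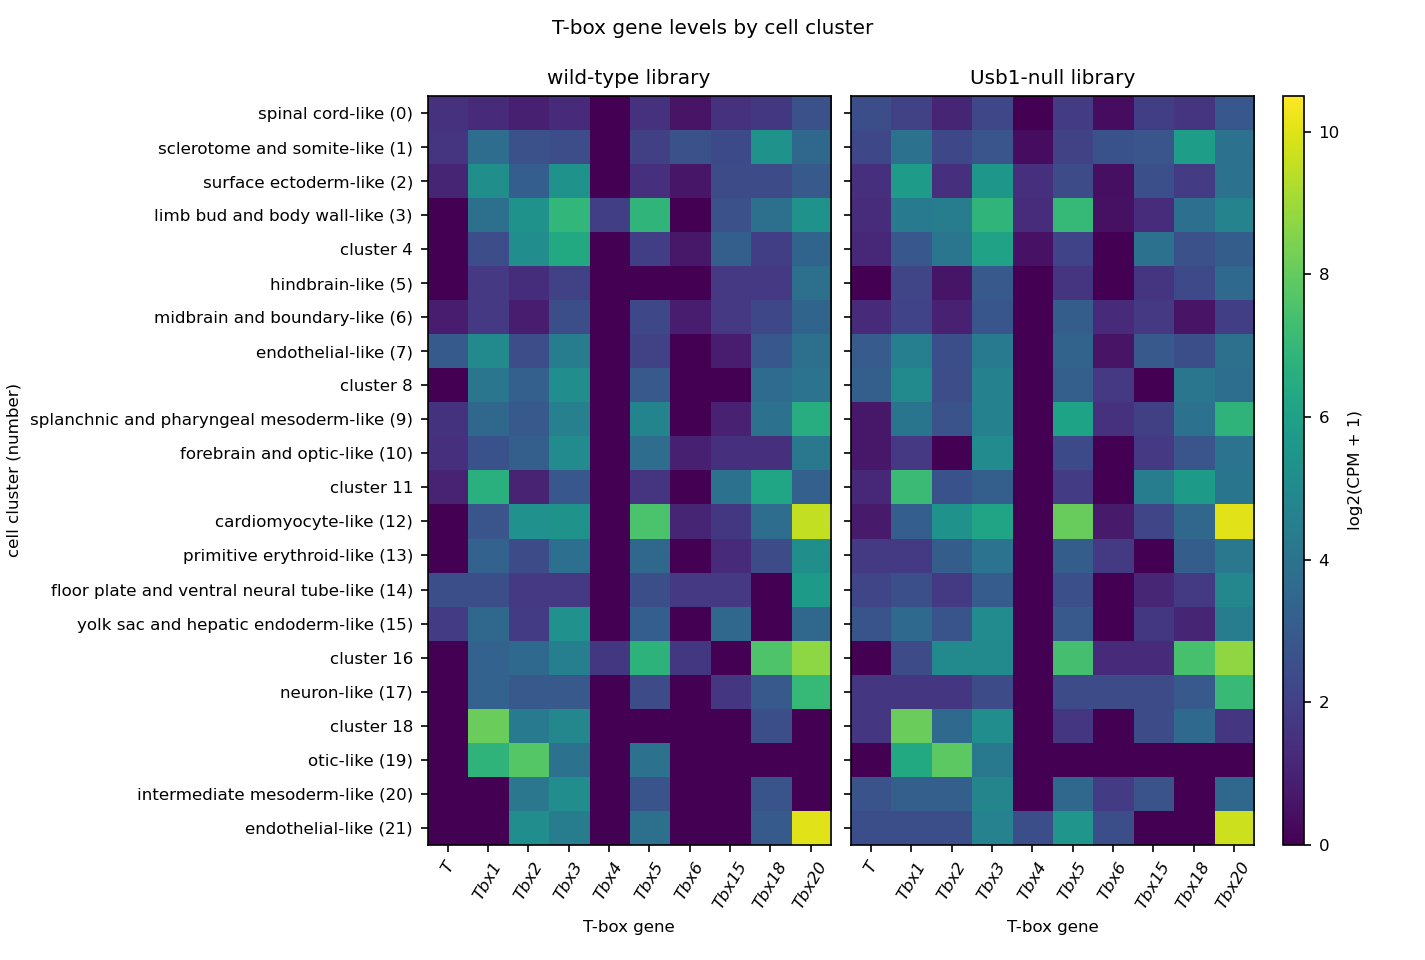
Level of each T-box gene (columns) as log2(CPM + 1) in the 22 larger clusters (rows), in the wild-type (left) and the Usb1-null library (right). Tbx20 and Tbx5 are bright in cardiomyocyte-like cells, Tbx2 in otic-like cells, Tbx1 in cluster 18 and Tbx18 in cluster 16 in both panels, and Tbx4 and Tbx6 are dark in nearly all rows.

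Over all cells, only T passed a 1.5-fold difference between the libraries. It was higher in the Usb1-null library, with 49 wild-type and 125 Usb1-null UMIs (2.25 and 3.74 CPM; ratio 1.66, interval 1.18 to 2.36). That is 1 of the 8 genes with at least 100 UMIs, against 6.95% of all such genes past 1.5-fold higher, and 0 of 8 were past 1.5-fold lower, against 5.43%. None of the 8 was past 2-fold, against 2.63% of all genes higher and 0.865% lower. With the wild-type cluster shares applied to both libraries the ratio of T was 1.44. In whole-library sums, fewer cells of a type and less RNA per cell cannot be told apart.

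The other genes differed by less. Tbx5 stood at 23.6 CPM in the wild-type and 32.3 CPM in the Usb1-null library (ratio 1.37, 1.23 to 1.52), and Tbx1 at 19.1 and 24.0 CPM (1.26, 1.12 to 1.42). Tbx20 stood at 65.4 and 76.3 CPM (1.17, 1.09 to 1.25) and Tbx15 at 3.64 and 4.85 CPM (1.33, 1.01 to 1.77). Tbx2 was the only gene with the opposite direction beyond its counting interval, at 13.7 and 9.68 CPM (0.706, 0.601 to 0.829). When every cell was thinned to 800 UMIs and shallower cells were left out, the Tbx2 ratio was 0.981 (0.754 to 1.28), that of T 1.51 (0.899 to 2.58) and that of Tbx15 1.41 (0.919 to 2.18), so these intervals then included 1. Tbx3 (1.00, 0.909 to 1.11) and Tbx18 (1.00, 0.874 to 1.15) stood at the same level in both libraries within counting error. Thus 5 of 8 intervals lay above 1 and 1 lay below 1, where 27.7% of all genes lay above and 31% below. The median log2 ratio of the 8 genes was 0.27, against -0.01 over all genes with at least 100 UMIs.

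**Figure D2:**
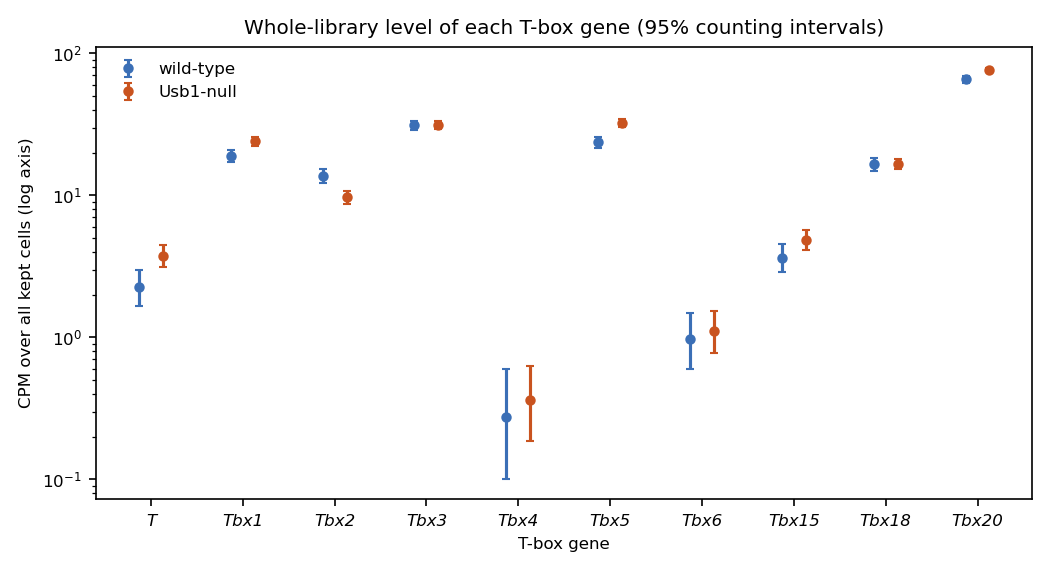
CPM of each T-box gene over all kept cells (log axis) in the wild-type (blue) and the Usb1-null library (orange), with 95% counting intervals. Intervals of the libraries are apart for T, Tbx1, Tbx2, Tbx5 and Tbx20, nearly coincide for Tbx3 and Tbx18, and are wide for Tbx4 and Tbx6, which had 18 and 58 UMIs in all.

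Tbx5 was highest in the cardiomyocyte-like cluster in both libraries and Tbx20 in the Usb1-null library alone. This cluster held 490 wild-type and 436 Usb1-null cells and raised 10 cardiomyocyte markers, among them Myh6, Ttn and Tnnt2. Tbx5 is known for its role in chamber formation. It stood at 182 CPM in wild-type cardiomyocyte-like cells (159 UMIs) and at 263 CPM in Usb1-null cells (367 UMIs), a ratio of 1.44 (1.19 to 1.75). Tbx20, which works with Gata4 and Nkx2-5, stood at 749 CPM (653 UMIs) and 1038 CPM (1449 UMIs), a ratio of 1.39 (1.26 to 1.52). Both genes were thus higher in the Usb1-null heart cells beyond counting error, and both were below a 1.5-fold difference. After thinning to 800 UMIs the Tbx5 ratio was 1.45 (1.05 to 2.03) and the Tbx20 ratio was 1.60 (1.37 to 1.88).

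The share of cardiomyocyte-like cells with a UMI was larger in the Usb1-null library for Tbx20, with intervals apart, while the intervals overlapped for Tbx5. For Tbx20 it was 38.0% of wild-type and 51.2% of Usb1-null cells at 800 UMIs per cell (56.7% and 78.4% unthinned), and for Tbx5 it was 13.5% and 17.4% (24.9% and 45.4% unthinned). Primitive erythroid-like cells, which should lack both, showed Tbx20 in 2.14% and 1.66% and Tbx5 in 0.917% of the wild-type and 0 of 181 Usb1-null cells. A count of 0 in 181 cells allows a share of up to 1.66% by the limit of 3 counts and up to 2.02% by the exact interval. Median depth was 1505 and 2676.5 UMIs in cardiomyocyte-like cells and 837 and 1725.5 UMIs in erythroid-like cells of the wild-type and the Usb1-null library.

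Tbx20 had a second domain of nearly the same height. In the small endothelial-like cluster 21, led by Adgrg6 and Nfatc1, a factor of the endocardium, it stood at 1029 CPM in the wild-type and 842 CPM in the Usb1-null library (150 and 176 UMIs; ratio 0.818, 0.654 to 1.02). Without called doublets the ratio was 0.734 (0.583 to 0.927). In the wild-type library this was its highest cluster, and in the Usb1-null library the cardiomyocyte-like cluster was. The larger endothelial-like cluster 7 held far less Tbx20, at 13.8 CPM in each library. Cluster 16, with Postn, Gata4, Wnt2 and Wt1 among its leading genes, came next, at 417 and 429 CPM (188 and 290 UMIs; ratio 1.03, 0.854 to 1.24). Lower levels were found elsewhere. Neuron-like cells held 130 and 137 CPM (ratio 1.05, 0.724 to 1.53), and splanchnic and pharyngeal mesoderm-like cells held 90.9 and 113 CPM (1.24, 0.968 to 1.60). After thinning, the latter ratio was 1.77 (1.21 to 2.62), an interval that excludes 1. In surface ectoderm-like cells the level was low, at 6.68 and 14.6 CPM from 12 and 41 UMIs (2.19, 1.13 to 4.58), where 4.89% of genes were past 1.5-fold higher. The part of free RNA from other cells in this low level was not tested. Tbx20 is known from motor neurons of the hindbrain as well as from the heart.

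The repressors Tbx2 and Tbx3 were present in the same cardiomyocyte-like cluster at lower levels. Tbx2 stood at 39.0 and 39.4 CPM (34 and 55 UMIs; ratio 1.01, 0.647 to 1.60). Tbx3 stood at 41.3 CPM in the wild-type and 68.8 CPM in the Usb1-null library (36 and 96 UMIs; ratio 1.67, 1.13 to 2.52), past 1.5-fold, as were 7.1% of the genes counted in that cluster. The Tbx3 ratio was 1.80 (1.16 to 2.86) without called doublets and 3.03 (1.5 to 6.66) after thinning.

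Nppa, a chamber muscle gene held down by Tbx2 and Tbx3, was lower in cells with a UMI of either repressor than in cells without one. In the wild-type library, the 29 cardiomyocyte-like cells with a Tbx2 UMI held 11 Nppa UMIs (183 CPM), and the 461 cells without one held 562 (692 CPM), a ratio of 0.264 (0.131 to 0.476). In the Usb1-null library, 43 cells with a Tbx2 UMI held 3 Nppa UMIs (19.3 CPM) against 174 CPM in the other 393 cells, a ratio of 0.111 (0.0227 to 0.328). Split by Tbx3, 32 wild-type cells with a UMI held only 2 Nppa UMIs (28.1 CPM), a ratio of 0.0394 (0.00476 to 0.143). In the Usb1-null library 78 such cells held 21 Nppa UMIs (77.7 CPM), a ratio of 0.442 (0.267 to 0.694). All 4 ratios lay below 1. Without called doublets they stayed below 1, between 0.0468 and 0.339, and that of Tbx3 in the Usb1-null library was 0.248 (0.126 to 0.443). Cells with a UMI of the activator Tbx5 also held less Nppa, with ratios of 0.770 (0.630 to 0.935) in the wild-type and 0.571 (0.428 to 0.757) in the Usb1-null library, so a lower Nppa level was not particular to cells with a repressor UMI. Cells with a Tbx2 UMI were deeper, with a median of 1804 against 1496 UMIs in the wild-type and 3179 against 2644 in the Usb1-null library, and so were cells with a Tbx3 UMI (1592 against 1499, and 3187.5 against 2603). The part of depth in these ratios was not tested. A UMI of Tbx2 was also found in 3 of 595 wild-type and 3 of 190 Usb1-null erythroid-like cells and one of Tbx3 in 9 and 5 of them, and the part of free RNA in the split was not tested. This split was chosen with the values known, and the cells of 1 library are not replicates.

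**Figure D3:**
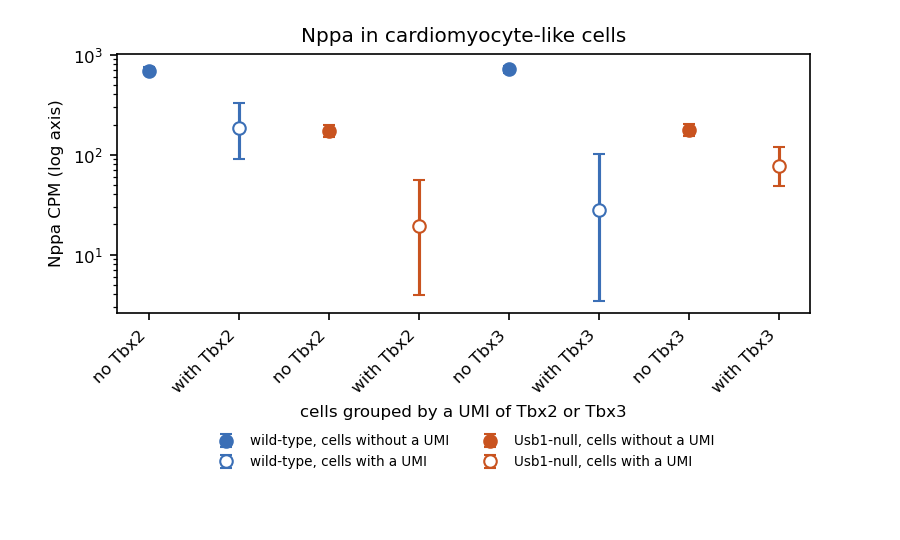
Nppa CPM (log axis, 95% counting intervals) in cardiomyocyte-like cells without (filled) and with (open) a UMI of Tbx2 or Tbx3, in the wild-type (blue) and the Usb1-null library (orange). Cells with a repressor UMI lie below cells without one in all 4 pairs, and the Usb1-null cells without one lie below the wild-type cells without one.

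Nppa also differed between the libraries. It stood at 657 CPM in wild-type cardiomyocyte-like cells (573 UMIs) and at 157 CPM in Usb1-null cells (219 UMIs), a ratio of 0.239 (0.203 to 0.280), and 7.27% of the genes counted in these cells were past 1.5-fold lower. General cardiomyocyte genes, named after their values were seen, differed too, with ratios of 0.465 (0.412 to 0.525) for Myl7, 0.599 (0.534 to 0.672) for Tnnt2 and 1.09 (1.05 to 1.13) for Ttn. Of the 15 cardiac partners and targets of these T-box genes, 13 had at least 100 UMIs over all cells. Of these, 3 were past 1.5-fold lower in the Usb1-null library (Nppa at 0.251, Nkx2-5 at 0.548 and Smpx at 0.558), against 5.43% of all genes, and 1 was past 1.5-fold higher (Irx4 at 1.53), against 6.95%. The other 9 were within 1.5-fold, among them Mef2c (173 and 219 CPM; 1.26) and Gata4 (80.6 and 85.2 CPM; 1.06), the list's most abundant genes. The median log2 ratio of the list was -0.09, against -0.01 over all genes.

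Tbx5 differed most in a neighbouring tissue. In splanchnic and pharyngeal mesoderm-like cells, which include second heart field markers such as Isl1, it stood at 25.3 CPM in the wild-type (27 UMIs) and 66.6 CPM in the Usb1-null library (112 UMIs), a ratio of 2.63 (1.72 to 4.17). Of the genes counted there, 5.61% were past 1.5-fold higher. The ratio was 2.39 (1.56 to 3.79) without called doublets and 2.61 (1.32 to 5.56) after thinning. In cluster 16, Tbx5 stood at 109 and 169 CPM (49 and 114 UMIs; ratio 1.55, 1.10 to 2.22), where 6.93% of genes were past 1.5-fold higher. Without called doublets that ratio was 1.32 (0.929 to 1.91).

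Tbx18, a gene of the epicardium, the venous pole of the heart and the anterior part of each somite, was highest in cluster 16. It stood there at 193 CPM in the wild-type (87 UMIs) and 175 CPM in the Usb1-null library (118 UMIs), a ratio of 0.905 (0.680 to 1.21). Cluster 16 raised 7 markers of splanchnic and pharyngeal mesoderm and 6 of septum transversum and proepicardium. It was left unnamed because the latter list had 2 genes among its leading genes and the former 1. Sclerotome and somite-like cells held more Tbx18 UMIs in all at a lower level, at 40.7 and 57.0 CPM (97 and 196 UMIs; ratio 1.40, 1.09 to 1.81). In cluster 11, led by Ddr2, Ebf1 and Ebf2, Tbx18 went the other way, at 72.6 and 51.4 CPM (70 and 77 UMIs; ratio 0.709, 0.506 to 0.994). Over all cells the ratio was 1.00. After thinning, the Tbx18 ratio was 1.26 (0.801 to 2.00) in cluster 16. It was then 1.82 (1.20 to 2.79) in sclerotome and somite-like cells and 0.406 (0.207 to 0.755) in cluster 11.

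Tbx15, the closest relative of Tbx18 here and a gene of dorsal dermis and skeleton, was highest in cluster 11, at low counts. It stood at 14.5 CPM (14 UMIs) and 20.7 CPM (31 UMIs), a ratio of 1.43 (0.737 to 2.90). Only 3 wild-type and 6 Usb1-null cells held a UMI of both Tbx15 and Tbx18, against 2.13 and 6.47 from the shares within clusters.

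Tbx1, a gene whose loss gives the pharyngeal and outflow tract defects of the 22q11 deletion syndrome in humans, was highest in cluster 18, which was led by Scn3a, Fgf10 and Mybpc1, among others, and raised too few markers to be named. Its level was the same in both libraries, at 276 CPM (59 and 127 UMIs; ratio 1.00, 0.730 to 1.39). At 800 UMIs per cell, 17.9% of wild-type and 17.5% of Usb1-null cells of cluster 18 held a Tbx1 UMI (27.3% and 42.1% unthinned, at median depths of 1138 and 2109 UMIs), against 0.917% and 0.552% of erythroid-like cells.

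Tbx1 was higher in the Usb1-null library in cluster 11 and in surface ectoderm-like cells. It stood at 99.5 and 144 CPM in cluster 11 (96 and 215 UMIs; ratio 1.44, 1.13 to 1.85) and at 36.7 and 53.1 CPM in surface ectoderm-like cells (66 and 149 UMIs; 1.45, 1.08 to 1.96). In surface ectoderm-like cells the ratio was 1.34 (0.988 to 1.85) without called doublets and 1.24 (0.741 to 2.09) after thinning. Otic-like cells held 114 and 81.6 CPM (24 and 27 UMIs; 0.717, 0.398 to 1.30). Endothelial-like cells of cluster 7 held 30.6 and 22.3 CPM (40 and 47 UMIs; 0.729, 0.468 to 1.14). Ratios in these last clusters were not distinguishable from 1 at this depth.

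Of 15 pharyngeal genes linked to Tbx1, 13 had at least 100 UMIs, of which 3 passed 1.5-fold upward in Usb1-null cells and 0 downward, against 6.95% and 5.43% of all genes. The 3 were Gbx2 (1.93 and 3.38 CPM; ratio 1.75, 1.22 to 2.56), Tcf21 (ratio 1.52) and Ripply3 (ratio 1.51). Eya1 stood at 248 and 279 CPM (1.12) and Fgf10, a growth factor gene activated by Tbx1, at 57.2 and 59.6 CPM (1.04). The median log2 ratio of the list was 0.06.

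Limb bud and body wall mesenchyme-like cells held Tbx5, Tbx3, Tbx2 and Tbx20. Tbx5, the forelimb gene, stood at 118 and 131 CPM (209 and 352 UMIs; ratio 1.11, 0.936 to 1.33). Tbx3 had its highest level there, at 124 and 116 CPM (220 and 312 UMIs; 0.937, 0.786 to 1.12), and 9.46% of wild-type and 9.11% of Usb1-null cells held a Tbx3 UMI at 800 UMIs per cell (15.99% and 24.3% unthinned, at median depths of 1380 and 2453 UMIs; erythroid-like cells 1.53% and 0 of 181, with an exact upper bound of 2.02%). Neither ratio was distinguishable from 1 at this depth. Tbx2 was lower in the Usb1-null library, at 41.6 and 20.4 CPM (74 and 55 UMIs; 0.491, 0.340 to 0.706). Tbx20 was lower in the same cells, at 40.5 and 24.9 CPM (72 and 67 UMIs; 0.615, 0.434 to 0.870), and 0.593 (0.308 to 1.11) after thinning. Both were past 1.5-fold lower, as were 7.38% of the genes counted in these cells. A Tbx20 UMI was also found in 16 of 595 wild-type and 7 of 190 Usb1-null erythroid-like cells. The part of free RNA in the Tbx20 difference was not tested.

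Tbx2 was also lower in cluster 4, which raised 9 markers of craniofacial mesenchyme and 9 of neural crest, led by Sox10, Tfap2b and Dlx2. It stood there at 34.3 CPM in the wild-type (59 UMIs) and 16.3 CPM in the Usb1-null library (39 UMIs), a ratio of 0.475 (0.309 to 0.725), and 7.08% of the genes counted there were past 1.5-fold lower. Tbx3 in cluster 4 stood at 83.1 and 64.8 CPM (143 and 155 UMIs; 0.780, 0.617 to 0.986). The Tbx3 ratio was 0.787 without called doublets, with an interval that reaches 1 (0.620 to 1.00), and 0.629 (0.413 to 0.944) after thinning. After thinning, the Tbx2 ratio was 0.475 (0.257 to 0.845) in limb bud and body wall mesenchyme-like cells and 0.510 (0.225 to 1.08) in cluster 4.

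The otic-like cluster, with 127 wild-type and 124 Usb1-null cells, had the highest Tbx2 level in both libraries. It stood at 213 CPM (45 UMIs) and 230 CPM (76 UMIs), a ratio of 1.08 (0.735 to 1.59), so that the lower Tbx2 of limb bud-like cells and cluster 4 was not seen there or in the heart. A Tbx2 UMI was found in 16.2% and 25% of otic-like cells at 800 UMIs per cell (29.9% and 45.2% unthinned, at median depths of 1455 and 2396.5 UMIs), against 0.612% of wild-type and 0 of 181 Usb1-null erythroid-like cells, with an exact upper bound of 2.02%.

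Of the 6 T-box genes with at least 50 UMIs in 2 or more clusters, 3 (Tbx3, Tbx18 and Tbx20) had a ratio above 1 in one cluster and below 1 in another, each beyond its counting interval. The same held for 10.1% of all genes with at least 50 UMIs in 2 or more clusters, and for 4.1% of those that reached this in 4 to 8 clusters, as these 6 did. With so few members, nothing is read from the count about the family.

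**Figure D4:**
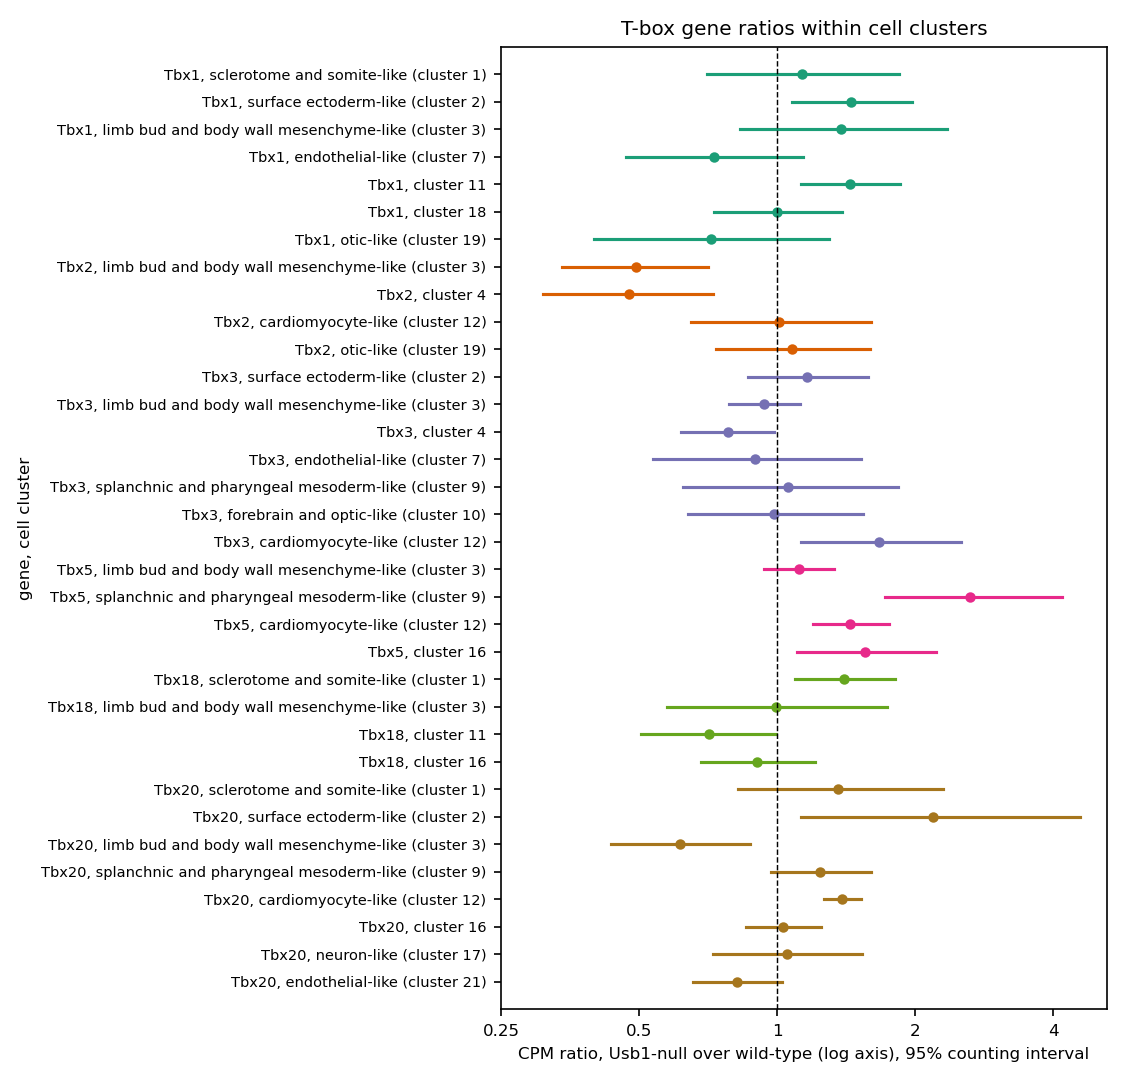
Ratio of CPM, Usb1-null over wild-type (log axis), for each T-box gene in each cluster in which it had at least 50 UMIs, with 95% counting intervals. Tbx2 lies below 1 in limb bud and body wall mesenchyme-like cells and in cluster 4 and near 1 in cardiomyocyte-like and otic-like cells, and the 4 Tbx5 ratios lie at or above 1.11.

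Tbx4, the hindlimb gene, was barely detected, with 6 wild-type and 12 Usb1-null UMIs in all. Limb bud and body wall mesenchyme-like cells held 5 of the 6 and 4 of the 12, and surface ectoderm-like cells held 0 and 5. No cluster reached the 10 UMIs set for a highest cluster. Of 10 limb genes linked to Tbx4, Tbx5 and Tbx15, 8 had at least 100 UMIs. Shh, a signalling gene of the limb and also of floor plate and notochord, passed 1.5-fold upward in Usb1-null cells (10.3 and 16.3 CPM; 1.59, 1.36 to 1.87), and Pitx1, a hindlimb factor upstream of Tbx4, passed it downward (14.8 and 9.83 CPM; 0.663, 0.567 to 0.776), against 6.95% of all genes upward and 5.43% downward. Prrx1, a gene of limb mesenchyme, stood at 153 and 123 CPM (0.800). The median log2 ratio of the list was -0.07.

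T was highest in a group of few cells. Cluster 25 had 19 wild-type and 25 Usb1-null cells, and it held 20 of the 49 wild-type and 38 of the 125 Usb1-null T UMIs. T stood there at 693 and 516 CPM, against 1.34 and 2.61 CPM in all other cells, and a T UMI was found in 11 and 19 of its cells. Shh was also high in it (19 and 55 UMIs; 658 and 747 CPM), as in notochord. Of the other notochord markers, Nog had 3 and 1 UMIs (104 and 13.6 CPM, against 2.99 and 4.05 CPM elsewhere), Cthrc1 4 and 3, Noto 0 and 1, Foxa2 0 and 2, and Chrd and Foxj1 0 in both libraries. These counts come from few cells. Of all marker lists, most genes were raised from that of surface ectoderm, but only Krt8 (9 and 10 UMIs) and Krt18 (4 and 6) of that list. These are fewer than the 3 set for a name, so cluster 25 was left unnamed. Samd3, Pkd1l1, Chrm2 and Shh were among its leading genes. Among clusters of at least 50 cells, T was highest in endothelial-like cluster 7, at 6.88 and 7.11 CPM from only 9 and 15 UMIs.

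Tbx6, which specifies paraxial mesoderm, had 21 and 37 UMIs in all, of which 12 and 18 lay in sclerotome and somite-like cells (5.03 and 5.24 CPM; ratio 1.04, 0.474 to 2.37). No cluster took the name of presomitic mesoderm in this clustering. A cluster led by Pcdh19, Dll3, Fgf18 and Dll1 separated when another seed was used, when called doublets were removed or when the libraries were not corrected. It was named presomitic mesoderm and tail bud-like in the last alone, where 5 markers of that class and 5 of dermomyotome and myotome were raised and the former led. In the others it raised 6 markers of dermomyotome and myotome and 5 of presomitic mesoderm and was left unnamed. Markers of the tail bud itself were almost absent from the named cluster. It held 0 of the 5 wild-type and 0 of the 25 Usb1-null UMIs of Nkx1-2, and 0 of 55 and 1 of 111 of Cyp26a1. In the uncorrected clustering, the 117 wild-type and 166 Usb1-null cells of this presomitic mesoderm and tail bud-like cluster held 9 and 16 Tbx6 UMIs (51.5 and 37.3 CPM) and 3 and 14 T UMIs (17.2 and 32.6 CPM). Both genes thus had their highest level there among clusters of at least 50 cells. These cells made up 0.772% of all cells in the wild-type (0.639% to 0.924%) and 1.28% in the Usb1-null embryos (1.09% to 1.48%). The intervals overlapped for the unnamed cluster of the other clusterings, with 1.05% (0.893% to 1.22%) and 1.23% (1.05% to 1.43%) of cells with seed 2, and 1.12% (0.958% to 1.31%) and 1.36% (1.17% to 1.58%) with called doublets removed, so a larger share in the Usb1-null library depended on the clustering.

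**Figure D5:**
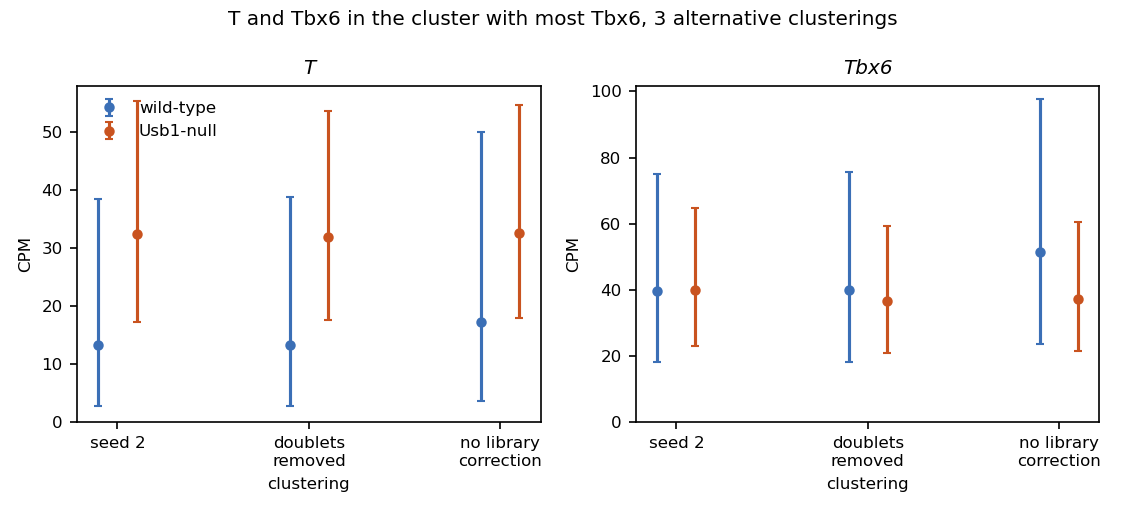
CPM of T (left) and Tbx6 (right) with 95% counting intervals in the cluster with most Tbx6 in 3 alternative clusterings, in the wild-type (blue) and the Usb1-null library (orange). T lies between 13.2 and 17.2 CPM in the wild-type and between 32.0 and 32.6 CPM in the Usb1-null library with overlapping intervals, and the Tbx6 intervals overlap throughout.

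Of 14 tail bud and segmentation genes downstream of T and Tbx6, 7 had at least 100 UMIs, and 0 of these were past 1.5-fold in either direction, against 6.95% of all genes upward and 5.43% downward. Dll1, a Notch ligand gene activated by Tbx6, stood at 22.1 and 31.0 CPM (ratio 1.40, 1.26 to 1.57) and Rspo3, a Wnt agonist gene, at 46.5 and 36.3 CPM (0.781, 0.718 to 0.850). The median log2 ratio was 0.05. Below the 100-UMI limit, Hes7, a gene of the segmentation clock, had 14 wild-type and 78 Usb1-null UMIs (ratio 3.63, 2.04 to 6.94), and it is named here because its value was seen. In the presomitic mesoderm and tail bud-like cluster it stood at 34.3 CPM (6 UMIs) and 93.2 CPM (40 UMIs). Msgn1, a direct target of Tbx6 and T, was at 0 UMIs in both libraries.

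Co-detection was counted for 6 pairs of T-box genes. Cells with a UMI of both Tbx2 and Tbx3, the repressor pair, numbered 36 (25.2 to 49.8) in the wild-type and 54 (40.6 to 70.5) in the Usb1-null library. The shares within clusters gave 22.5 and 30.7, below these intervals. Tbx5 and Tbx20 were found together in 115 (94.9 to 138) and 243 (213 to 276) cells. The shares within clusters gave 96.5 and 220 for this pair, which lie inside these intervals. Tbx1 and Tbx20 met in 8 and 26 cells, against 8.53 and 24.7. Tbx4 and Tbx5 met in 0 and 2 cells, against 0.813 and 1.11. T and Tbx6 met in 1 and 1, against 0.632 and 0.293, and Tbx15 with Tbx18 is given above. Cell depth was not matched in these counts, and its part in them was not tested.

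The genes whose pattern over the 22 clusters was most like that of each T-box gene were found from Pearson's r of log2(CPM + 1) in each library, as a description over clusters that share library and depth. Tbx20 was most like Gata4 (r = 0.811 in the wild-type and 0.820 in the Usb1-null library), Mical2 and Tmem108. Tbx5 was most like Kcnh7 (0.868 and 0.894), Prdm6 and 1700021F13Rik, and Tbx18 most like Col1a2 (0.714 and 0.749), Pdgfra and Svep1. Among the genes most like Tbx1 were Foxk1 (0.611 and 0.716) and Gm266 (0.660 and 0.599). Tbx3 was most like Unc5b (0.733 and 0.770), Bambi and Rap2c, Tbx2 like Mettl24 (0.638 and 0.593), Igsf3 and Clcn5, Tbx15 like Gm12830 (0.712 and 0.650), Gm4631 and Nbdy, and T like Arhgef28 (0.658 and 0.515), N4bp3 and Ski.

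The other 7 genes of the family were Eomes, Tbr1, Tbx10, Tbx19, Tbx21, Tbx22 and Mga. Only Mga, which also holds a basic helix-loop-helix domain, had at least 100 UMIs, at 174 and 229 CPM (3771 and 7653 UMIs; ratio 1.32, 1.27 to 1.37). Each of the remaining 6 had at most 23 UMIs in a library.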

How the data were processed

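Per the labels, whole embryos at E9.5 were dissociated and barcoded with the 10x Chromium 3′ kit (v3.1 chemistry). The authors deposited UMI counts per gene and barcode without normalisation. The matrix header names Cell Ranger 6.1.2, whereas the submitters' processing notes name Cell Ranger 2.1.1 and mm10. Whether intronic reads were counted was not stated. Every barcode held at least 500 UMIs. The number of columns set aside was 0.

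Cells with 200 to 6000 genes and under 30% mitochondrial UMIs were kept, with the thresholds the study states. The wild-type file had 15162 barcodes, of which 15161 passed, and the Usb1-null file had 13034, of which 13018 passed. The study names fewer cells for the wild-type and more for the Usb1-null embryos, so the cell sets are not identical. Kept cells were scaled to 10000 counts, and 2000 variable genes were chosen with Scanpy 1.11.5 without T-box, mitochondrial, ribosomal, Xist or Y-linked genes. From these, 30 components were corrected for library with Harmony (own NumPy 2.4.6 code), joined to 15 neighbours and clustered with leidenalg 0.10.2 at the resolution nearest to 30 clusters. Scrublet called 6.76% of wild-type and 4.29% of Usb1-null cells doublets, which were kept and then removed as an alternative. A cluster took the name of the marker list with most raised genes (at least 3, each with 10 UMIs and 2-fold over the rest), with ties broken by the number of list genes among its 10 leading genes, and none where the tie remained or another list had more of those. This naming rule was set after the clusters were seen.

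CPM is the summed UMI count over all UMIs of the same cells. Intervals are exact Poisson for CPM and exact Clopper-Pearson for shares and ratios (SciPy 1.17.1). For a count of 0, the limit of 3 counts over the number of cells was also given. PCR and capture add error that they do not cover. A gene was past the fold at a CPM ratio of 1.5, among genes with at least 100 UMIs (50 within a cluster), and log2 ratios had 1 CPM added. Thinning drew 800 UMIs per cell and left out 2689 wild-type and 304 Usb1-null cells. All members are named, with the 3 most alike genes each (200 UMIs) and, per list, the 2 most abundant and the 1 most changed gene. A gene most like Tbx1 is not reported here. Coordinates are from GENCODE M21. Only the CPM ratio and the intervals were tested on simulated data, drawn as Poisson and binomial counts, the model that the intervals assume. Clustering, naming, thinning and doublet calls were not tested in this way. The members, lists and comparisons were chosen with earlier results of these data known.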

Additional observations from a re-analysis of the deposited data

Results flagged for a closer look

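Of the 6 T-box genes with at least 50 UMIs in 2 or more clusters, 3 differed from wild-type in opposite directions in different clusters, each beyond its counting interval. The share was 10.1% over all genes with at least 50 UMIs in 2 or more clusters, and with so few members nothing is read from it about the family. Tbx3 had a Usb1-null over wild-type ratio of 1.67 in cardiomyocyte-like cells and 0.780 in cluster 4. Tbx18 had a ratio of 1.40 in sclerotome and somite-like cells and 0.709 in cluster 11. Tbx20 had a ratio of 2.19 in surface ectoderm-like cells (12 wild-type and 41 Usb1-null UMIs) and 1.39 in cardiomyocyte-like cells, and 0.615 in limb bud and body wall mesenchyme-like cells. Some of these intervals reached 1 under an alternative. For Tbx3 in cluster 4 the ratio was 0.787 (0.620 to 1.00) without called doublets, and after thinning Tbx20 stood at 3.15 (0.975 to 13.3) in surface ectoderm-like cells and at 0.593 (0.308 to 1.11) in limb bud and body wall mesenchyme-like cells. The part of free RNA in the low Tbx20 levels of surface ectoderm-like and of limb bud and body wall mesenchyme-like cells was not tested. The difference between clusters was not tested, since each genotype had 1 library.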

How the results depend on the processing

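No paired analysis was possible because there is just 1 library of each genotype, and none was left out. Depth, sex and genotype cannot be told apart between the libraries. The counts of Tbx4 and Tbx6 allow no statement on direction.

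Of 237 results under an alternative, 184 stayed within the counting interval of the reported value (for a count, within 1.5 times), 51 moved beyond it and 2 ratios whose interval excluded no difference were reversed. In all, 16 ratios changed sign, and for 14 of these the reported interval included no difference, among them Tbx6 in its highest cluster (from 0.05 to -0.45 on the log2 scale without library correction and -0.12 with doublets removed). T in its highest cluster stayed within its wide interval while going from 0.04 to 1.23 with seed 2 and 1.21 with doublets removed. The number of T-box genes past 1.5-fold over all cells was 2 with a minimum of 1000 genes per cell and 2 without called doublets, where Tbx2 joined T, and it was 0 with wild-type cluster shares, 0 after thinning to 800 UMIs (where 6 genes kept 100 UMIs and T, at a ratio of 1.51, did not) and 0 at a fold of 2. Thinning moved the whole-library log2 ratios of Tbx2 to -0.026, Tbx3 to -0.15, Tbx4 to -0.38, Tbx6 to 0.62 and Tbx20 to 0.37.

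The log2 ratio of Tbx20 in its highest cluster turned to -0.41 when T-box genes were used for clustering and to -0.30 without library correction, because the highest cluster was then the endothelial-like one led by Adgrg6 and Nfatc1. That of Tbx1 moved to 0.53 with fewer clusters, because its highest cluster was then the one led by Ddr2 and Ebf1.

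The pooled level in the highest cluster moved as clusters were redrawn. With T-box genes allowed, it was 181 CPM for Tbx1, 8.50 for Tbx6, 12.1 for Tbx15 and 1021 for Tbx20. At a resolution nearest to 19 clusters, it was 126 CPM for Tbx1, 107 for Tbx3 and 62.4 for Tbx18. Without library correction, it was 28.2 CPM for T, 158 for Tbx1, 41.4 for Tbx6, 148 for Tbx18 and 970.1 for Tbx20. With seed 2, it was 25.4 CPM for T, 173 for Tbx1, 39.7 for Tbx6 and 224 for Tbx18. With doublets removed before clustering, it was 25.6 CPM for T, 167 for Tbx1, 312 for Tbx5, 37.7 for Tbx6, 225 for Tbx18 and 1108 for Tbx20.

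Shares of cells with a UMI in the highest cluster were larger without thinning. In wild-type and Usb1-null cells they were 27.3% and 42.1% for Tbx1, 29.9% and 45.2% for Tbx2, 15.99% and 24.3% for Tbx3, 24.9% and 45.4% for Tbx5, 16.5% and 26.0% for Tbx18 and 56.7% and 78.4% for Tbx20. In Usb1-null cells they were 2.101% for T and 4.86% for Tbx15.

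Removing doublets or thinning within the clusters was chosen after seeing the data. It turned no direction among the ratios whose interval excluded 1, and thinning moved Tbx3 in cardiomyocyte-like cells to 3.03, Tbx18 in sclerotome and somite-like cells to 1.82 and in cluster 11 to 0.406, and Tbx20 in cardiomyocyte-like cells to 1.60.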
